A study of Mus musculus with 20 samples.

Results

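Nnt codes for nicotinamide nucleotide transhydrogenase, an enzyme of the inner mitochondrial membrane. In the table of gene counts from these mouse hearts it was listed as 2 entries of the 25308 genes, ENSMUSG00000025453 and ENSMUSG00000116207, and both were taken because they carry the symbol Nnt. Nnt was chosen by the levels of its entries in these mice, of which 1 was higher and the other lower in hearts with amyloid. Its levels are therefore given as a description, with no test.

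Transcripts of the heart apex were sequenced in 2 batches of libraries, 20 mice in all. AL mice (9) were λS-DH mice (genotype DH-lambdaS) with amyloid deposits, which the study induced with an intravenous injection of the variable domain of the light chain, as sonicated fibrils or in soluble form. LS mice (4) were λS-DH mice that had not been induced and had no deposits (AL-), and Ctrl mice (7) were DH-LMP2A mice, called DH. All 3 groups share the DH-LMP2A allele, which lets plasma cells arise in the absence of Ig heavy chains. λS-DH mice also carry the cDNA of a human amyloidogenic λ light chain at the Ig kappa locus, on both copies, where a mouse VH promoter drives it in cells of the B lineage. The mice were adults of both sexes over 3 months old, and the sex and exact age of each mouse were not given in the labels. Batch 1 held AL1 to AL7, all LS mice and Ctrl1 to Ctrl4, and batch 2 held AL8, AL9 and Ctrl5 to Ctrl7. No LS mouse was in batch 2.

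The transhydrogenase uses the proton gradient to pass hydride from NADH to NADP+, and so supplies the mitochondrial matrix with NADPH. Glutathione reductase and thioredoxin reductase spend that NADPH to remove peroxides, and the heart, rich in mitochondria, has high Nnt levels. Nnt is also a classic marker of strain background: C57BL/6J mice carry a deletion of several coding exons that abolishes the protein, while other C57BL/6 substrains and 129 mice carry the whole gene. The methods name 129 and C57BL/6 in the pedigree. The light chain was targeted in E14 129 ES cells, injected in C57BL/6 blastocysts whose substrain was not named. The offspring were crossed with a CMV-Cre deleter line of The Jackson Laboratory and then with DH-LMP2A mice. Which Nnt allele each mouse carried was not given in the sources used here. GRCm38, the genome the reads were aligned to, is itself a C57BL/6J genome, so the exons missing from that substrain had no value in the table, and the counts came from exons that both alleles share.

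Both entries lie on chromosome 13 of GRCm38, on the minus strand, and GENCODE M21 gives them 6 transcript models. ENSMUSG00000025453 spans 119335448 to 119408997 with 5 models, named Nnt-201 to Nnt-205. ENSMUSG00000116207 spans 119335528 to 119408952 with a single model, Nnt-206, of 17 exons and 3339 nucleotides. Nnt-206 is one unbroken stretch of Nnt-202 (17 exons, 3464 nucleotides): all 16 coding exons have the same ends, and their coding sequences of 2505 nucleotides are equal. It has 0 exonic bases of its own. Nnt-202 has 125 bases more, 45 at its start and 80 at its end, and 96.4% of it is shared. Hence a read inside Nnt-206 fits both entries, and how many reads each entry received rests on how Salmon apportioned them.

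The main difference within ENSMUSG00000025453 is that Nnt-201 lacks exons 8 and 9 of Nnt-202, which are coding exons at 119374629 to 119374774 (146 nucleotides) and 119372396 to 119372591 (196 nucleotides). Short coding stretches show what the models share and where they part. The first stretch is the start of the coding sequence at chr13:119404673-119404702, with the start codon in capitals, which lies in an exon of all 6 models. The other two cross the end of exon 7, whose last 15 bases are in capitals, into exon 8 in Nnt-202, Nnt-203 and Nnt-206, or over exons 8 and 9 in Nnt-201. Only the last of them tells an entry apart, since it belongs to ENSMUSG00000025453 alone.
Coding start: ATGgcgcacctactgaagacggtggtggct
Join of exons 7 and 8: CAGCTCTGATTCCAGgtggttttctggtga
Join over exons 8 and 9: CAGCTCTGATTCCAGgcctgacgatcgcaa

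**Figure D1:**
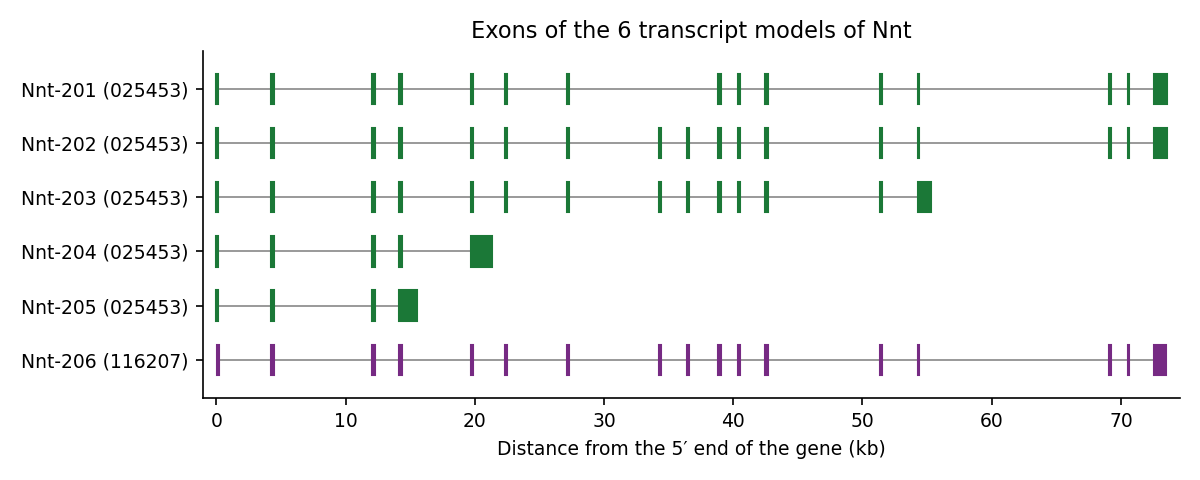
Exons (boxes, widened to at least 0.15 kb where shorter) and introns (lines) of the 6 models of Nnt, drawn by distance in kb from the 5′ end of the gene, with models of ENSMUSG00000025453 in green and of ENSMUSG00000116207 in purple (the last digits of the entry stand beside each name). Every exon of Nnt-206 lies under an exon of Nnt-202, and Nnt-201 lacks 2 exons in the middle of the gene.

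The deposited values bore the mark of such apportioning. The estimated count of ENSMUSG00000025453 was a whole number (within 0.01) in 9 of the 20 mice, whereas the 2 entries summed to a whole number in 20 of 20. In AL1, for example, 5302.728 counts were listed under ENSMUSG00000025453 and 12170.272 under ENSMUSG00000116207, which sum to 17473. The summed value does not depend on how reads were divided between the entries.

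With both entries summed, Nnt was among the more abundant transcripts, at 530.3 ± 219.2 CPM (SD, n = 20 mice; CPM is counts per 1000000 after TMM scaling), above the mean CPM of 98.85% of the 14477 genes tested. The highest mouse was 3.91 times the lowest. In batch 1 the summed level of AL1 to AL7 was 276.2, 402.0, 459.3, 404.0, 439.0, 333.6 and 345.9 CPM. The 4 LS mice had 512.5, 844.9, 1008 and 460.0 CPM. Ctrl1 to Ctrl4 had 706.2, 1023, 462.0 and 511.3 CPM. Thus all 7 AL mice of batch 1 lay below all 8 LS and Ctrl mice of that batch, although AL3 (459.3 CPM) and LS4 (460.0 CPM) all but met. Of the genes tested, 6.41% likewise had all AL mice below all LS and Ctrl mice of batch 1.

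The LS and Ctrl mice of batch 1 were of 2 levels. LS2, LS3, Ctrl1 and Ctrl2 lay at 706.2 to 1023 CPM, and LS1, LS4, Ctrl3 and Ctrl4 at 460.0 to 512.5 CPM, with 2 LS and 2 Ctrl mice on each level. The 4 mice of the upper level had reads of Xist, the RNA of the inactive X chromosome in females, at 184.7 to 399.6 CPM. Of the lower 4, Ctrl3 also had Xist (197.2 CPM) and the other 3 were at 0.7319 to 6.355 CPM. In the AL mice of batch 1 the 3 with Xist at 268.8 to 351.8 CPM (AL2, AL3 and AL4) had 402.0 to 459.3 CPM of Nnt, against 276.2 to 439.0 CPM in the other 4. The part of sex in the Nnt level was not tested.

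In batch 2, AL8 had 722.8 CPM of summed Nnt and AL9 261.8 CPM. Ctrl5 to Ctrl7 had 481.6, 444.2 and 509.5 CPM, so 1 AL mouse lay above all Ctrl mice and the other below all of them. Ranked over both batches, the levels ran from Ctrl2, LS3, LS2, AL8 and Ctrl1 at the top to AL6, AL1 and AL9 at the bottom, and from LS1 (512.5 CPM) to AL2 (402.0 CPM) 11 mice of all 3 groups followed each other in steps smaller than the SD of their groups.

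In means, summed Nnt in batch 1 was 380.0 ± 64.44 CPM in AL (SD, n = 7), 706.2 ± 263.4 in LS (n = 4) and 675.6 ± 254.4 in Ctrl (n = 4). On the log2 scale the ratio of the AL mean to the Ctrl mean was -0.83, that to the LS mean -0.89, and that of LS to Ctrl 0.06. In batch 2 the mean was 492.3 ± 326.0 CPM in AL (n = 2) and 478.4 ± 32.76 in Ctrl (n = 3), a log2 ratio of 0.04. The lower sum in AL was therefore seen in batch 1 and not in the means of batch 2. In bulk tissue, fewer cells that express Nnt and less Nnt RNA per cell cannot be told apart. Levels of heart muscle markers are given beside those of summed Nnt. Over the 8 cardiomyocyte markers, from Myh6 to Mybpc3, the summed level in batch 1 was 46290 to 57690 CPM in AL and 58930 to 69610 CPM in LS and Ctrl together. The groups did not overlap there, as those of Nnt did not. Among single genes, 6.41% of those tested had all AL mice of batch 1 below the others. In batch 2 it was 75730 CPM in AL8 and 59970 CPM in AL9, with the higher level in the mouse of higher Nnt, and 70400 to 77130 CPM in Ctrl. Mouse by mouse the 2 did not always go together, since Ctrl2, with the highest Nnt, had the lowest marker sum (58930 CPM) of the LS and Ctrl mice of batch 1. Myh6 was the largest part of the sum, with a mean in batch 1 of 19320 CPM in AL and 26150 CPM in Ctrl. Actc1 (8200 and 7513 CPM) and Myl2 (8479 and 8535 CPM) did not share that difference. Of the 8 markers, 1 had a positive log2FC between AL and Ctrl in batch 1. Over both batches 0 of the 8 were called between AL and Ctrl (7.81% of all genes) or between AL and LS (8.9%). With no fold needed, 2 and 3 of the 8 had an FDR under 0.05. Against LS, 0 of the 8 had a positive log2FC. None of the 8 was at 0 in any group. In batch 1 the 5 macrophage markers summed to 270.8 to 467.1 CPM in AL and 207.5 to 318.9 CPM in LS and Ctrl, with 1 of them (Lyz2) called higher in AL than in Ctrl over both batches, and the 5 fibroblast markers to 801.1 to 1276 CPM and 687.9 to 1058 CPM. The part of these cell types in the Nnt level was not tested.

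**Figure D2:**
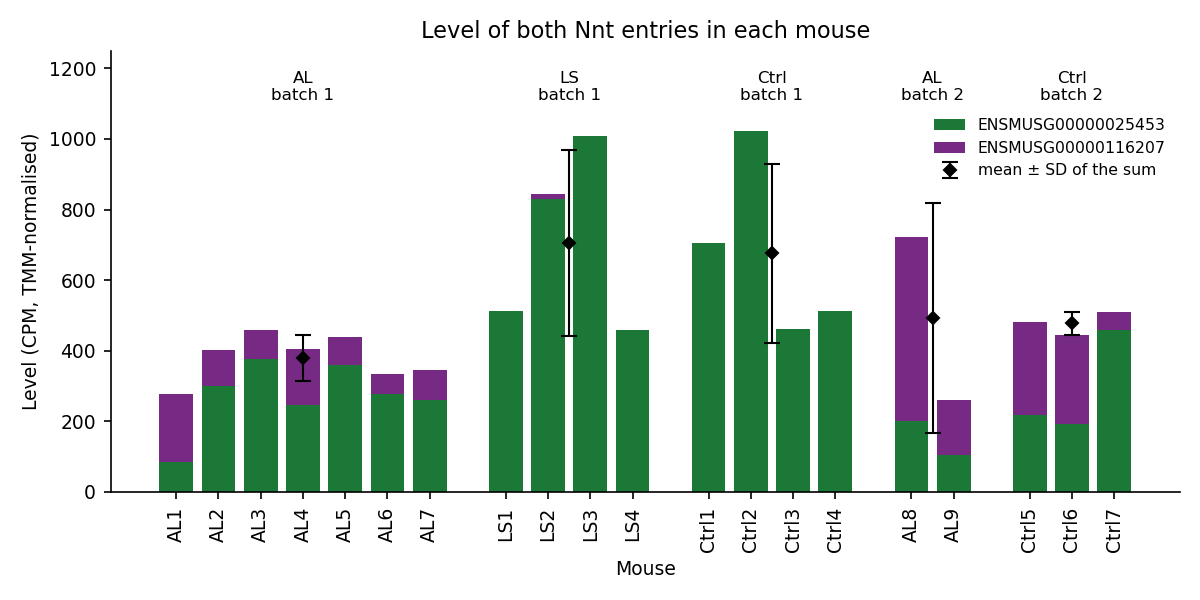
Level of ENSMUSG00000025453 (green) and ENSMUSG00000116207 (purple) in each mouse as stacked bars in CPM, by group and batch, with the mean ± SD of their sum (diamonds). The purple part is present in all AL mice and in all mice of batch 2, and is at or near 0 in the LS and Ctrl mice of batch 1.

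ENSMUSG00000116207 was listed at 0 in 7 of the 20 mice, and all 7 were among the 8 LS and Ctrl mice of batch 1. The remaining mouse of those 8 was LS2, with 14.12 CPM. Such a 0 says how reads were apportioned, and sets no limit on the RNA of this model. In AL1 to AL7 this entry had 192.4, 100.6, 83.52, 158.3, 79.81, 57.37 and 85.20 CPM, and no AL mouse was at 0. In batch 2 it had 521.9 CPM in AL8 and 157.3 in AL9, and 264.7, 251.2 and 50.28 CPM in Ctrl5 to Ctrl7. Thus the entry was present with amyloid in batch 1 but in all 3 Ctrl mice of batch 2 too. Of the genes tested, 3.01% had all AL mice above all LS and Ctrl mice of batch 1.

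ENSMUSG00000025453 ran the other way. It had 83.82, 301.4, 375.8, 245.7, 359.2, 276.2 and 260.7 CPM in AL1 to AL7. In LS1 to LS4 it had 512.5, 830.7, 1008 and 460.0 CPM, and in Ctrl1 to Ctrl4 its level was that of the sum given above. AL did not overlap LS and Ctrl in batch 1, which held (all AL mice lower) for 6.41% of the genes tested. The log2 ratio of means was -1.31 for AL against Ctrl and -1.37 for AL against LS. AL8 and AL9 had 200.9 and 104.5 CPM of it, and Ctrl5 to Ctrl7 had 216.9, 193.0 and 459.2 CPM. Without amyloid, the Ctrl mean was 675.6 CPM in batch 1 and 289.7 CPM in batch 2.

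The 2 entries can be read together as the share of Nnt reads that ENSMUSG00000116207 received, not corrected for length. In AL1 to AL7 this share was 69.65%, 25.03%, 18.18%, 39.19%, 18.18%, 17.20% and 24.63%. It was 1.672% in LS2 and 0% in the other 7 LS and Ctrl mice of batch 1. In batch 2 it was 72.20% in AL8, 60.09% in AL9, 54.97% in Ctrl5, 56.54% in Ctrl6 and 9.868% in Ctrl7. Within batch 1 the shares of AL mice thus lay wholly above those of LS mice, which have the same labelled genotype (DH-lambdaS), and of Ctrl mice. Batch 2 differed from batch 1 in sequencing run and in depth (at most 11794615 counts per mouse, against at least 43993277). It differed in sex-linked RNA too, since Xist was at 0 to 0.199 CPM in its 5 mice and Ddx3y, a gene of the Y chromosome, at 19.4 to 88.2 CPM, whereas 8 of the 15 mice of batch 1 had Xist above 100 CPM. Run, depth, sex and any difference of cohort cannot be told apart between the batches.

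The division of reads was then examined in other genes with overlapping entries. In the annotation 35 symbols had 2 entries that overlap on 1 strand, and 12 of them reached a mean of 1 CPM with no mouse at 0, Nnt and 11 others. The range of the share over the 20 mice was 72.2 percentage points for Nnt, 91.88 for Zc3h11a (chromosome 1), 66.78 for Gcat (chromosome 15), 44.52 for Fam220a (chromosome 5) and 31.84 for Septin2. Of the 11, 1 had shares that separated the AL mice from the LS and Ctrl mice of batch 1, as those of Nnt did. This was Septin2, a cytoskeletal GTP-binding protein, whose second entry took 67.76% to 82.52% of the reads in AL mice, 51.60% to 64.32% in LS and Ctrl mice of batch 1 and 66.15% to 83.44% in batch 2. AL1 and AL8 had the highest shares of both genes in their batch and group (82.52% and 83.44% for Septin2). The second entry of Gcat was at 0% in all 15 mice of batch 1 and in AL8, and at 24.62% to 66.78% in the other 4 mice of batch 2. Shifts in the share of overlapping entries were thus not seen in Nnt alone. The pairs differ, however, in how far their entries overlap. Those of Gcat share 65.21% of the shorter entry, and those of Zc3h11a summed to a whole number in 1 of the 20 mice. Their shifts need not come from reads that fit both entries.

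**Figure D3:**
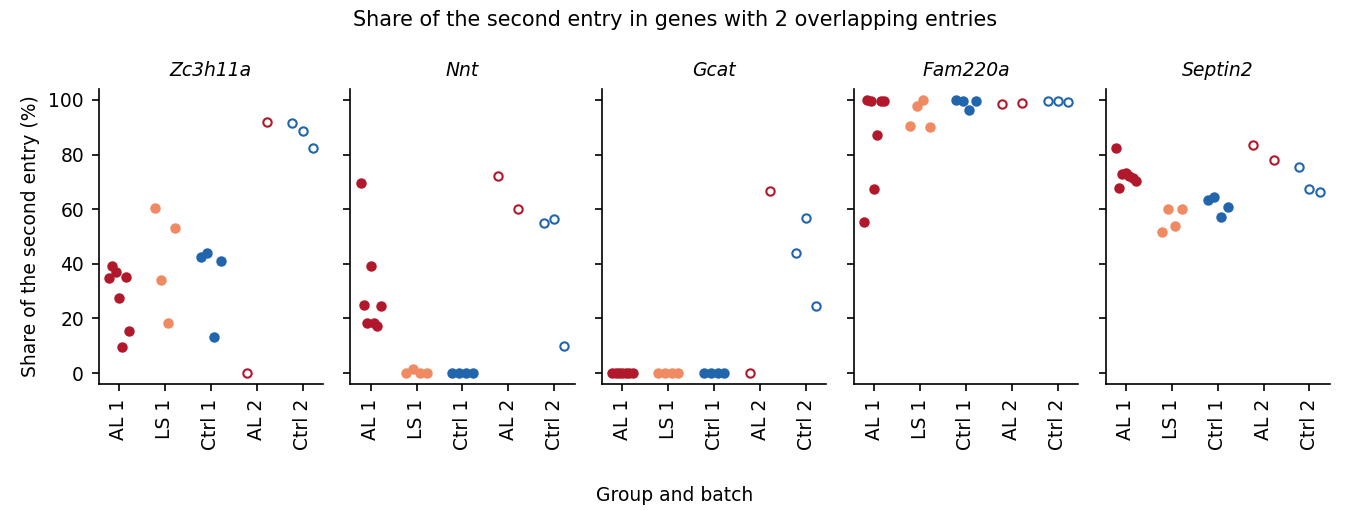
Share (%) of the reads of a gene that its second overlapping entry received, in each mouse (points), by group and batch (filled, batch 1; open, batch 2), for the 5 genes with the widest range. In Nnt and Septin2 the AL mice of batch 1 lie above the LS and Ctrl mice of batch 1, and the mice of batch 2 lie mostly with the AL mice.

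In a ranking of 12219 genes (mean level of 1 CPM or more), those whose log2 CPM followed each entry most closely over the 20 mice were ranked by Spearman's rho, which these mice share through batch, depth and group. For ENSMUSG00000025453 the highest were Ppm1l (0.94), a protein phosphatase, Tmem182 (0.93), Slc39a9 (0.92), Hltf (0.91) and Pde3a (0.91), a cAMP phosphodiesterase of heart muscle. The lowest were Dus1l (-0.92), Anp32b (-0.92), Rp9 (-0.91), Rnf220 (-0.91) and Cep63 (-0.89). For ENSMUSG00000116207 the highest were Tcf7l2 (0.95), a transcription factor of Wnt signalling, Rnf220 (0.93), Ube2q1 (0.92), Paf1 (0.91) and Cep63 (0.90). Its lowest were Vkorc1l1 (-0.93), Ykt6 (-0.92), Slc31a1 (-0.91), a copper importer, Pkia (-0.90) and Gfod1 (-0.89). Rnf220 and Cep63 stood at opposite ends for the 2 entries, whose own rho with each other was -0.90. Of these genes Gfod1 alone is on chromosome 13. Within the 15 mice of batch 1 the 20 values kept their sign and ranged in size from 0.83 (Gfod1) to 0.93. The genes were picked over 20 mice that include these 15, so this is no separate check. Ranked anew in batch 1 alone or with the run difference removed, only 1 of the 10 genes of each entry was found again.

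Genes beside Nnt were examined next, since a stretch of another strain around Nnt would carry its neighbours with it. Nnt lies close to the end of chromosome 13. Within 5 Mb of it the table listed 25 genes, of which 18 passed the filter on low counts, and each was tested with edgeR over all 14477 genes (called means an FDR below 0.05 together with a log2FC of 0.58 or more in size). Between AL and Ctrl, where 7.81% of all genes were called, 0 of the 18 were called by edgeR and 1 by DESeq2. An unadjusted p under 0.05 in edgeR was seen in 5 of the 18. The shares of all genes with such a p, or with an FDR under 0.05 alone, are not given here or below. Their median log2FC was 0.05, beside 0.01 over all genes. The gene next to Nnt, Paip1 (0.02 Mb away), which codes for a poly(A)-binding protein partner, had 75.2 to 91.2 CPM in AL mice of batch 1 and 71.8 to 84.2 in Ctrl mice of batch 1, so the groups overlapped where those of Nnt did not.

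Between AL and LS, with 8.9% of all genes called, 1 of the 18 was called. This was BC147527, 0.89 Mb from Nnt, a gene at the edge of detection with 0.172 to 0.642 CPM in AL and 0.0473 to 0.316 CPM in LS (log2FC 1.64, SE 0.52, FDR 0.0305), and it was not called without LS1, LS3 or LS4, with no run term or with ComBat-seq (FDR up to 0.0987). Between LS and Ctrl, with 0.0207% of all genes called, 0 of the 18 were called by edgeR or DESeq2, and 0 had an unadjusted p under 0.05. Between Ctrl mice of batch 2 and of batch 1, where 14.7% of all genes were called, 2 of the 18 were called. Parp8 was higher in batch 2 (log2FC 0.89, SE 0.15, FDR 0.000253) and Emb, which codes for embigin, was lower (log2FC -1.42, SE 0.48, FDR 0.0329). They lie 2.31 and 2.06 Mb from Nnt.

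Hmgcs1, 0.28 Mb from Nnt, codes for the cytosolic HMG-CoA synthase of sterol synthesis. Among the 13 neighbours ranked by rho, it was the highest for ENSMUSG00000025453 and the lowest for ENSMUSG00000116207. It was picked out after its values were seen. It had 28.9 to 35.0 CPM in the AL mice of batch 1, 41.3 to 45.4 CPM in LS and 38.3 to 45.1 CPM in Ctrl1 to Ctrl4. AL thus did not overlap the others, which held (all AL mice lower) for 6.41% of the genes tested. In batch 2 it had 26.3 to 27.9 CPM in AL and 30.4 to 31.4 CPM in Ctrl. It was lower in AL than in Ctrl (log2FC -0.32, SE 0.05, FDR 0.000535) and than in LS (log2FC -0.40, SE 0.06, FDR 0.000537), and in Ctrl mice of batch 2 than of batch 1 (log2FC -0.43, SE 0.08, FDR 0.000497). All 3 differences were below the fold needed for a call. Its rho over the 20 mice was 0.84 with ENSMUSG00000025453 and -0.84 with ENSMUSG00000116207. Over all ranked genes, the 5th to 95th percentile of rho was -0.68 to 0.75 and -0.75 to 0.69. Mouse by mouse Hmgcs1 did not always go with summed Nnt, although in batch 1 all AL mice lay below the others in both. Ctrl2, with the highest summed Nnt (1023 CPM), had the lowest Hmgcs1 (38.3 CPM) of the LS and Ctrl mice of batch 1. AL8 had 722.8 CPM of summed Nnt and 27.9 CPM of Hmgcs1.

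**Figure D4:**
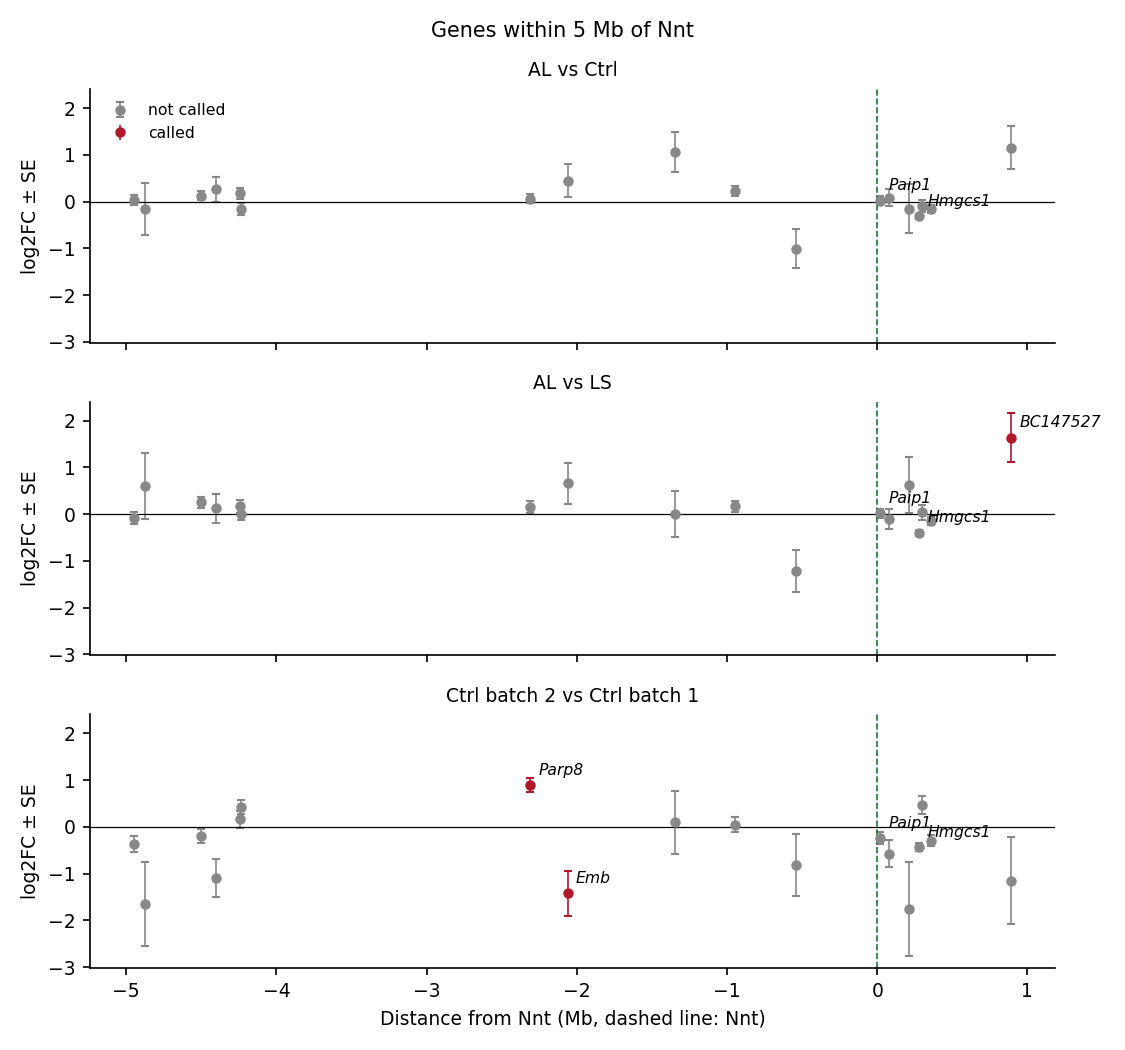
log2FC ± SE (edgeR) of the 18 tested genes within 5 Mb of Nnt, by distance in Mb from Nnt (dashed line), in 3 comparisons, with called genes in red. No gene is called between AL and Ctrl, BC147527 is called between AL and LS, and Parp8 and Emb between the batches of Ctrl mice.

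Other genes around the NADPH pool were taken from fixed lists of 9 entries for mitochondrial sources of NADPH, 17 for mitochondrial users and 8 for sources elsewhere, and all 34 passed the filter. The lists were broad. They also held genes that do not themselves make or spend NADPH, such as Nadk2 and Sod2, and Me2, a malic enzyme that mainly uses NAD+. Between AL and Ctrl 2 of the 34 were called, where 7.81% of all genes were called in either direction. Both were lower in AL (3.71% of all genes were called lower). With no fold needed, 12 of the 34 had an FDR under 0.05. The shares of all genes given here do need the fold, so they cannot be set beside that count. Among the entries listed as mitochondrial sources, 1 of 9 was called and the median log2FC was -0.23. This was Aldh1l2, which makes NADPH from formyl-tetrahydrofolate in the matrix. It had a lowest, median and highest level of 6.02, 8.34 and 9.41 CPM in AL and 8.30, 11.9 and 18.2 CPM in Ctrl, and 9.36, 14.0, 15.5 and 15.8 CPM in LS in order of level. It was lower in AL than in Ctrl (log2FC -0.69, SE 0.15, FDR 0.00328) and than in LS (log2FC -0.73, SE 0.18, FDR 0.00734). Within batch 1 the difference from Ctrl was -0.92 (FDR 0.00154), and within batch 2 it was -0.12 (FDR 0.801). The change of this difference between batches had an FDR of 0.174.

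A further 5 entries listed as mitochondrial sources had an FDR under 0.05 between AL and Ctrl without reaching the fold. Nadk2, the mitochondrial NAD kinase, was at log2FC -0.52 (FDR 0.000639), Me2, a malic enzyme, at -0.43, Idh2, the NADP-dependent isocitrate dehydrogenase, at -0.23, and Glud1, glutamate dehydrogenase, at -0.20. Mthfd2, a folate dehydrogenase, went the other way, at 0.58. It was called higher in AL than in LS (log2FC 0.78, SE 0.25, FDR 0.0300), with 2.13, 3.51 and 6.49 CPM as the lowest, median and highest of AL against 2.17 to 2.95 CPM in LS, but it was not called without AL1, AL7, LS2, LS3 or LS4. Idh2 was the most abundant of these genes, with 1212 to 1941 CPM in AL, 1390 to 1628 in LS and 1461 to 2074 in Ctrl over both batches. These ranges overlapped, as those of summed Nnt did over both batches. Within batch 1 Idh2 was at 1212 to 1466 CPM in AL and 1461 to 1695 in Ctrl, a narrow overlap where summed Nnt had none.

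Of the 17 listed mitochondrial users, edgeR called 0 between AL and Ctrl (7.81% of all genes) and 0 between AL and LS (8.9%). An unadjusted p under 0.05 was seen in 4 and 3 of the 17. DESeq2 called 0 of the 17 in either comparison, and the median log2FC was 0.03 in both. Those past an FDR of 0.05 between AL and Ctrl were Sod2, the matrix superoxide dismutase (-0.31), Prdx3, a peroxiredoxin (-0.30), and Gpx4, a glutathione peroxidase (0.27). Gsr, glutathione reductase, which spends NADPH directly, was at -0.03 (FDR 0.805). The 2 entries of Txnrd2, a thioredoxin reductase, were tested apart, and their sum was not tested. In Ctrl5, Ctrl6 and Ctrl7, ENSMUSG00000075704 had 20.6, 0.231 and 28.2 CPM, and ENSMUSG00000099282 had 0.295, 17.1 and 0.70 CPM. Of the 8 sources outside mitochondria, Aldh1l1, the cytosolic partner of Aldh1l2 and a gene of high level in liver, was lower in AL than in Ctrl (log2FC -0.74, SE 0.19, FDR 0.00775), with -0.87 in batch 1 (FDR 0.0121) and -0.41 in batch 2 (FDR 0.462). All 10 liver markers, from Alb to Mup3, were also called lower in AL than in Ctrl (3.71% of all genes). Their summed level was 0.947 to 36.3 CPM in AL, 6.30 to 177.0 in LS and 0.609 to 303.5 in Ctrl. Within batch 1, 9 of the 10 were called lower in AL than in Ctrl, and within batch 2 0 were. In batch 2 the summed level was 0.947 to 1.955 CPM in AL (n = 2) and 0.609 to 1.21 CPM in Ctrl (n = 3). The part of the liver markers in the lower Aldh1l1 and Nnt was not tested. Between LS and Ctrl, where 0.0207% of all genes were called, 0 of the 34 entries were called by edgeR or DESeq2. An unadjusted p under 0.05 was seen in 1 of the 34. Between the batches of Ctrl mice 3 were called, Gpx1 (log2FC -0.85), Glrx2 (-0.61) and Nadk2 (-0.60), all lower in batch 2, as were 8.35% of all genes.

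**Figure D5:**
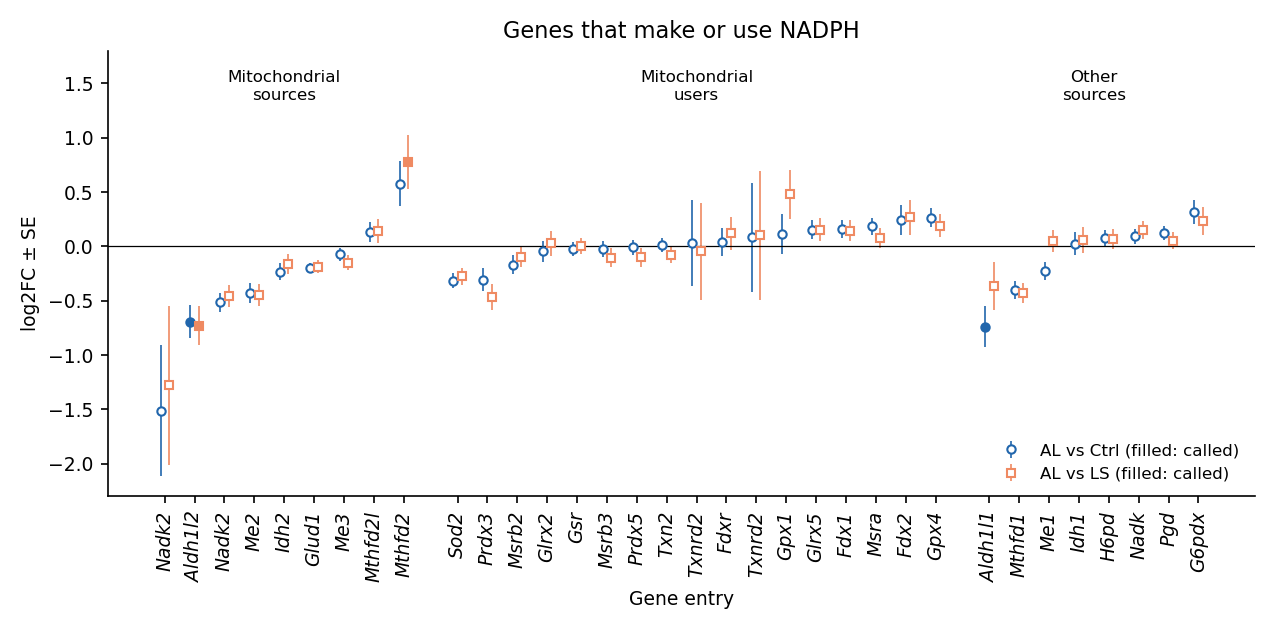
log2FC ± SE (edgeR) of the 34 entries of the NADPH lists, for AL against Ctrl (circles) and AL against LS (squares), by list, with called entries filled. Aldh1l2 is called in both comparisons, Aldh1l1 against Ctrl and Mthfd2 against LS, and most entries lie near 0; Nadk2 and Txnrd2 have 2 entries each.

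A further list held genes described as differing between C57BL/6 substrains or colonies in sequence, copy number or expression, and 9 entries of it were tested. Beside 7.81% of all genes, 0 of the 9 were called between AL and Ctrl by edgeR or DESeq2, 5 had an unadjusted p under 0.05, and those past an FDR of 0.05 were Cyfip2 (log2FC -0.48), Entpd4 (-0.41) and Ipo11 (-0.38). Between AL and LS (8.9% of all genes) 1 of the 9 was called, an entry of Ide, the insulin-degrading enzyme (ENSMUSG00000111624, log2FC -0.82, SE 0.15, FDR 0.00104). With both entries of Ide summed, its level was 68.3 ± 6.72 CPM in AL (SD, n = 9) and 89.9 ± 4.82 in LS (n = 4), a log2 ratio of means of -0.40. That ratio has no batch term, unlike the log2FC, so their sizes cannot be set side by side. Ide was not among the overlapping pairs examined above, and the division of its reads between the entries was not examined. Between LS and Ctrl (0.0207%) 0 were called by either tool, and 2 had an unadjusted p under 0.05. Between the batches of Ctrl mice (14.7%) 1 of the 9, Wdfy1, was called, lower in batch 2 (log2FC -1.02, SE 0.23, FDR 0.00326). Crb1, Fgfbp3 and Entpd4b were called in none of these 4 comparisons.

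Several of these genes differed between mice of the same group, as summed Nnt did, and the following patterns were picked out after their values were seen. Wdfy1, a gene of endosomal signalling, had 34.6, 34.2, 38.8 and 34.0 CPM in LS2, LS3, Ctrl1 and Ctrl2, the 4 mice on the upper level of Nnt. It had 21.8, 22.1, 23.7 and 20.6 CPM in LS1, LS4, Ctrl3 and Ctrl4, the 4 on the lower level. So both genes divided the 8 LS and Ctrl mice of batch 1 in the same way, with 2 mice of each group on either side. The 2 levels were set by the Nnt values themselves, and how many other genes divide these 8 mice in this way was not counted. In AL1 to AL7, however, Wdfy1 was at 32.6 to 46.6 CPM beside the lowest Nnt levels of the batch, and in batch 2 it was at 10.4 to 21.3 CPM.

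Other genes of the list divided the mice otherwise. The first Ide entry (ENSMUSG00000056999) had 19.4, 15.9 and 17.5 CPM in LS3, LS4 and Ctrl7 and 26.7 to 43.1 CPM in the other 17 mice. The second entry had 70.5, 76.6 and 61.1 CPM in the same 3 mice and 29.5 to 52.1 CPM in the others, so that the first entry was lowest and the second highest in the same mice. Entpd4b was at 9.01 CPM in Ctrl1 and at 23.2 to 36.8 CPM in the other 19 mice, while Entpd4 was at 72.2 CPM in Ctrl1, above all other mice of batch 1. Of these mice LS3 and Ctrl1 were on the upper level of Nnt and LS4 on the lower. Whether any of these patterns follows strain background was not tested, since the labels name no substrain for a mouse.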

How the data were processed

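Heart apex RNA of 20 mice was sequenced by the authors from stranded polyA libraries, processed with nf-core/rnaseq 3.12, aligned to GRCm38 with STAR and quantified with Salmon. The deposited table holds estimated counts, not normalized and with no run adjustment. Of its values 14.2% were not whole, and they were rounded for the tests. Totals were 7867642 to 62668146 counts per mouse, so 3 counts equal 0.0474 to 0.356 CPM. Correlations between libraries (log2 CPM) were 0.926 to 0.991.

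Each column was matched to a mouse by its library name. The 14477 genes kept by filterByExpr (minimum count 10) were scaled by TMM and tested with edgeR 4.0.16 (glmQLFit, glmQLFTest, R 4.3.3), with group and batch as terms and all groups in 1 fit; batches of Ctrl mice were compared in a fit of 5 group-by-batch means. FDR is Benjamini-Hochberg over all genes tested. CPM levels use the values as deposited. Alternatives were RLE factors, no filter, no run term, a replicate block, batch 1 alone, ComBat-seq (sva 3.50.0), DESeq2 1.42.0, windows of 2 and 10 Mb, and each mouse left out. Tests were checked on simulated data.

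The gene, the lists and the alternatives were chosen with earlier results of these data known. Named genes are both Nnt entries, called genes of the lists or within 5 Mb, the substrain list, and the 5 highest and 5 lowest in rho for each entry; genes named besides these were chosen after their values were seen. Gene models and sequences come from GENCODE M21 and its GRCm38 transcripts. The methods name Ensembl release 111 for the counting, whose models may differ. The values of 1 gene within 5 Mb are not reported here. Nothing in the labels tells whether mice are littermates.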

Additional observations from a re-analysis of the deposited data

Results flagged for a closer look

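Within each group of 4 to 9 mice, the gap of the highest or lowest mouse to its neighbour was compared with the range of the group in 69 sets of values, and about 1 in 20 is flagged by chance. AL8, a mouse of batch 2, stood apart in ENSMUSG00000116207 at 521.9 CPM (next AL1, 192.4), in summed Nnt at 722.8 CPM (next AL3, 459.3) and in Cyfip2 at 207.3 CPM (next AL3, 131.7). LS2 stood apart in ENSMUSG00000116207 at 14.12 CPM and in its share at 1.672%, the other LS mice being at 0. Emb was at 6.024 CPM in AL9 (next AL4, 2.511). Entpd4b was at 9.014 CPM in Ctrl1 (next Ctrl6, 30.48).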

How the results depend on the processing

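Of 566 values computed under an alternative, 507 were taken as kept. For single genes this meant still called in the same direction, and for Nnt levels a shift smaller than the SD of the group. A count of genes could differ a little and still be taken as kept, as with 3 NADPH entries in place of 2. Only single genes could be found reversed, and 0 were. Counts of called genes moved as follows, and the cause was not tested. Within 5 Mb of Nnt, DESeq2 called 1 gene between AL and Ctrl and 2 between AL and LS, and no run term left 0 between AL and LS. By construction more genes were counted within 10 Mb (2 between AL and Ctrl, 4 between AL and LS, 7 between the batches of Ctrl mice) and fewer within 2 Mb (0 between the batches of Ctrl mice). Of the NADPH entries, DESeq2 called 4 for AL against Ctrl, and 1 was called for AL against LS with no run term, with a replicate block and with ComBat-seq, Mthfd2 being lost. The replicate numbers do not pair the mice (correlations of same-numbered mice -0.1543 to 0.2313), and the block gave 851 calls over all genes between AL and Ctrl (1130 without it) and 1228 between AL and LS (1288). ComBat-seq gave 648 between AL and LS, and DESeq2 gave 19 between LS and Ctrl (3 in edgeR, 6 with ComBat-seq).

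With each mouse left out, genes called within 5 Mb ranged from 0 to 1 between AL and Ctrl, 0 to 2 between AL and LS, 0 to 0 between LS and Ctrl and 1 to 3 between the batches of Ctrl mice. Between AL and Ctrl 1 was called without AL1, AL8, Ctrl1, Ctrl2, Ctrl3 or Ctrl6. Between AL and LS, 2 were called without AL1, Ctrl2 or Ctrl3 and 0 without LS1, LS3 or LS4. BC147527 was also lost between AL and LS with ComBat-seq, where Fgf10 was called in its place. Emb was lost without Ctrl1, Ctrl2, Ctrl5 or Ctrl7. NADPH entries ranged from 2 to 3, from 1 to 2 and from 0 to 0 in the first 3 comparisons. Among single genes, Glrx2 was lost without Ctrl2 or Ctrl5 and Nadk2 without Ctrl7, whereas Aldh1l2, Aldh1l1, Ide, Parp8, Gpx1 and Wdfy1 were called under every alternative run. Mean summed Nnt ranged from 365.2 to 422.8 CPM in AL, 605.8 to 788.3 in LS and 519.1 to 615.6 in Ctrl, and the median share of ENSMUSG00000116207 from 24.83% to 32.11%, 0% to 0% and 0% to 4.934%. With mitochondrially encoded genes left out of the total, mean summed Nnt was 601.8 CPM in AL and 846.5 in Ctrl.

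The genes most like Nnt depended on the measure: of 10 for ENSMUSG00000025453, 4 were found again by Pearson's r, 1 in batch 1 alone and 1 with the run difference removed, and of 10 for ENSMUSG00000116207, 1, 1 and 1. The lower depth of batch 2 limits genes of few counts such as BC147527, and summed Nnt had at least 3042 counts in each mouse.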
